A study of Mus musculus with 14 samples.

Results

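The genes described here are the hair keratins, the keratins of the inner root sheath and companion layer, and the keratin-associated proteins (KAPs) of mouse epidermis. They were taken by symbol from the epidermis gene table: every gene whose symbol starts with Krtap, and the keratins Krt25 to Krt28, Krt31 to Krt36 with their letter forms, Krt71 to Krt75 and Krt81 to Krt86. This gave 75 of 24411 genes, of which 53 are KAP genes and 22 are keratin genes. The series compares newborn mice of the genotype Trp63-Ex13fl/fl, whose Trp63 keeps exon 13 (p63alpha), with KRT14-Cre; Trp63-Ex13fl/fl mice (p63beta). Both groups carry the floxed Trp63 allele, and the controls carry no Cre. The KRT14 promoter drives Cre in basal cells of stratified epithelia, which include the outer root sheath of the hair follicle. Epidermis separated from the dermis by trypsin gave 4 p63alpha and 4 p63beta libraries, and cultured keratinocytes gave 3 and 3. Separate animals behind the libraries are not stated in the labels, and p-values therefore speak only of the spread among the libraries at hand, which may be technical.

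A hair follicle builds its shaft from cells of the hair matrix that fill with keratin filaments and then die. The filaments are pairs of a type I and a type II keratin, and KAPs, which are small proteins rich in cysteine or in glycine and tyrosine, bind the filaments together in the hardening shaft. The inner root sheath, which moulds the shaft, and the companion layer around it have keratins of their own. Epidermis lifted from newborn skin can bring follicles with it. In bulk RNA, fewer cells of a type and less RNA per cell cannot be told apart.

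The epidermis libraries held 21290068 to 44909629 estimated counts, and EP09, a p63alpha library, was the shallowest. Library names are those of the columns: EP07, EP08, WT3 and EP09 are p63alpha, and EP10, EP11, EP12 and KO2 are p63beta. WT3 and KO2 are named in another style than the 6 EP libraries. Levels are given in counts divided by the total of the library and scaled to a common size (CPM), and in length-corrected units (TPM) where genes are compared with each other per length. Nid2, a basement membrane gene that was 6.24 ± 0.28 higher in p63beta on the log2 scale (SE, edgeR adjusted p 7.81e-06), measured 1.18 to 2.96 CPM in all p63alpha libraries, EP09 included, and 133 to 179 CPM in p63beta. EP09 therefore carries the Nid2 level of its labelled genotype. It nevertheless stood apart from the other 7 libraries in the hair genes, and the main results below are given with and without it.

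The summed level of the 75 genes was 116, 46.4, 52.0 and 2120 CPM in EP07, EP08, WT3 and EP09, and 114, 201, 270 and 192 CPM in EP10, EP11, EP12 and KO2. As a share of all TPM these sums came to 0.0160%, 0.00712%, 0.00609% and 0.411% in p63alpha and to 0.0172%, 0.0303%, 0.0424% and 0.0207% in p63beta. EP09 was higher than every p63beta library. EP08 and WT3 were lower than every p63beta library, and EP07 lay beside EP10, the lowest of them. In all, 72 of the 75 genes had a count in some library, and Krtap20-2, Krtap31-2 and Krtap5-1 had none. Genes with at least 10 counts numbered 36 in EP07, 29 in EP08, 18 in WT3 and 68 in EP09, against 47 in EP10, 55 in EP11, 53 in EP12 and 39 in KO2. EP09 was the highest library for 69 of the 72 genes, and EP12 was second for 42 of these 69. Among the 53 genes with enough counts to be tested, 51 were highest in EP09, against 23.4% of all genes tested. The exceptions among the 72 were Krt84 and Krtap13, highest in EP11, and Krt74, highest in EP10.

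**Figure D1:**
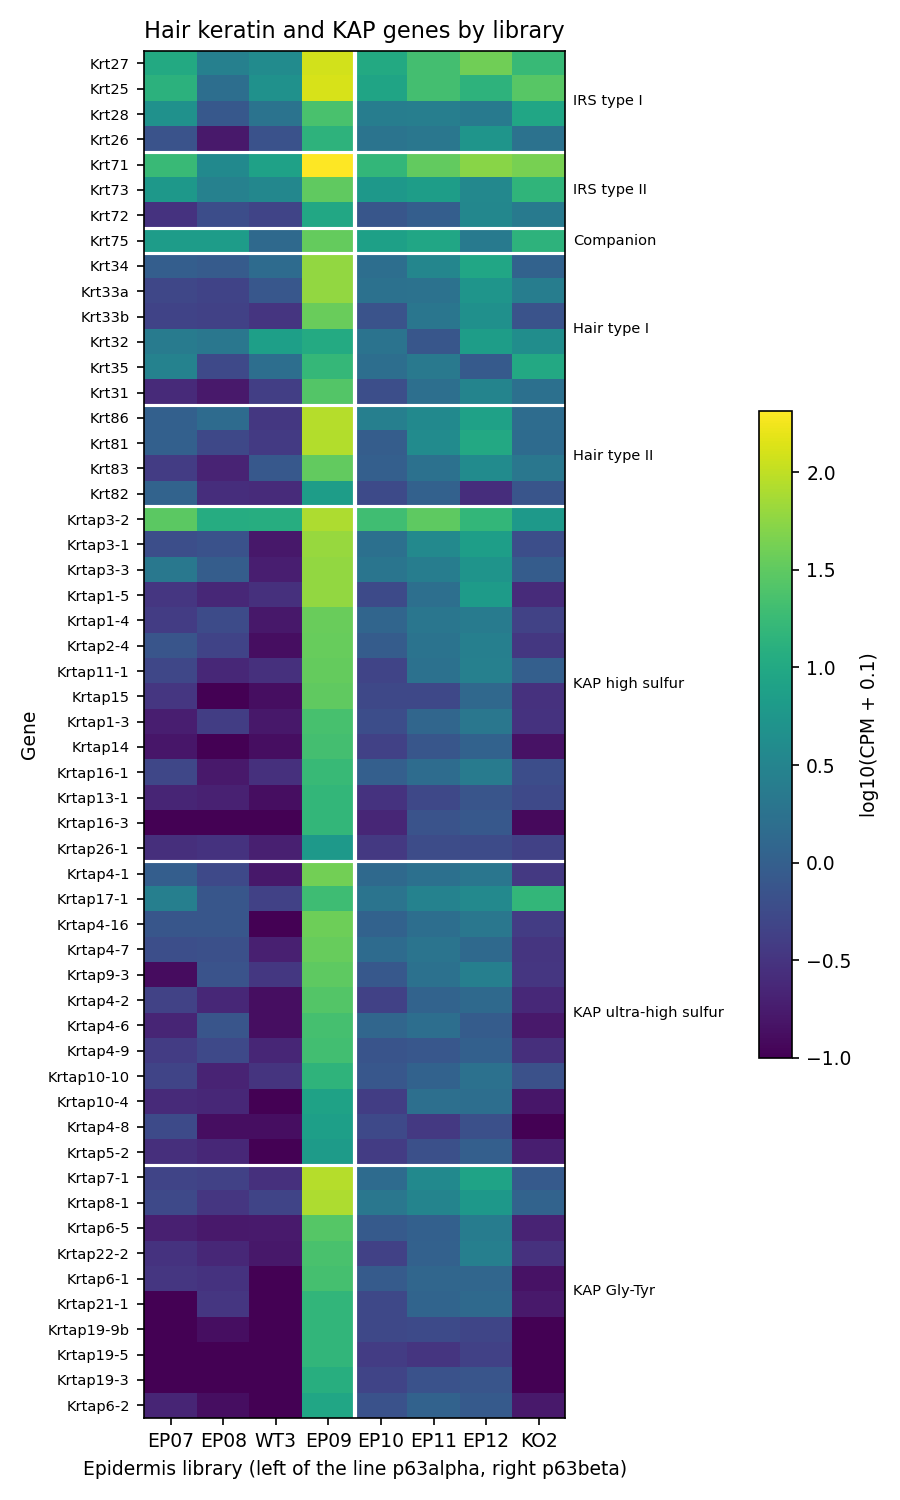
Level of each gene (rows) in each epidermis library (columns) as log10(CPM + 0.1), for 54 genes with a mean of at least 1 CPM that were matched to RefSeq, with p63alpha libraries left of the line. The EP09 column is the brightest in nearly every row, and the columns of EP12 and EP11 come next.

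By symbol, 74 of the 75 genes were placed on the mouse genome (mm10, annotated coordinates of GRCm38.p6). Chromosome 11 holds 33 of them between 99315516 and 100109490, which are the 11 type I keratins and 22 KAP genes. Chromosome 15 holds 10 type II keratins between 101459060 and 101802360. The other KAP genes lie on chromosome 16 (23 genes, 88610709 to 89571183), chromosome 7 (5 genes, 142174530 to 142304500) and chromosome 10 (3 genes, 77720586 to 77837251). Positions on chromosomes 7 and 15, and the upper limit on chromosome 11, are rounded to the nearest 10 bases.

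The promoters of these genes, which lie on 5 chromosomes, were read for a shared element. RefSeq promoters were given for 63 of the 75 genes. The letters TATAAA, the core of the TATA box, were searched on both strands in the 100 bases before each start, with no other motif searched. They occurred in 48 of the 63 promoters (76.2%), always on the strand of the gene, and in 5.56% of all 32851 promoters of the table. The match began a median of 31 bases before the start, and 40 of the 48 matches began 20 to 50 bases before it. By class, 4 of 4 type I and 2 of 3 type II inner root sheath keratins, 4 of 5 type I hair keratins, 14 of 18 high sulfur, 15 of 17 ultra-high sulfur and 9 of 13 high glycine-tyrosine KAP genes held the letters. Neither of the 2 type II hair keratins given nor Krt75 did. Genes of the same family were counted as separate promoters, so the 63 are not independent of each other. A match is a description of these letters and not evidence of a bound factor, and any link to the levels in EP09 was not tested.

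The 100 bases before the start are shown for the gene of highest mean TPM in each class among those with a promoter, so that the position of the TATA letters can be compared between classes. Each runs 5′ to 3′ on the strand of the gene, which is the minus strand for all 8, with TATAAA in capitals. The coordinates are chr15:101573905-101574004 for Krt75, chr15:101743098-101743197 for Krt71, chr11:99351119-99351218 for Krt27, chr11:100041555-100041654 for Krt34, chr15:101550660-101550759 for Krt82, chr11:99556854-99556953 for Krtap3-2, chr11:99993995-99994094 for Krtap17-1 and chr16:89487953-89488052 for Krtap8-1 (GRCm38.p6).
Krt75: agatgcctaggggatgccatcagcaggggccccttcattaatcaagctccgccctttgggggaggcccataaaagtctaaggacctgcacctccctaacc
Krt71: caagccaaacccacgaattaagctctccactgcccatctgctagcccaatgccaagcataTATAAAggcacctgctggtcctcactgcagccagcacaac
Krt27: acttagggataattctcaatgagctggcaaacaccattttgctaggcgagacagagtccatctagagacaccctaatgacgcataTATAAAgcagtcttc
Krt34: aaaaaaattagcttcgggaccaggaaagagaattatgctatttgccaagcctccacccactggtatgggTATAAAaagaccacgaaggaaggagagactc
Krt82: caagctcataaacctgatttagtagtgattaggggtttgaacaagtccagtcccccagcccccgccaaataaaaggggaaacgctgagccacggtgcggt
Krtap3-2: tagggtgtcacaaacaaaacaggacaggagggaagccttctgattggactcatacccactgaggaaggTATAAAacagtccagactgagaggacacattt
Krtap17-1: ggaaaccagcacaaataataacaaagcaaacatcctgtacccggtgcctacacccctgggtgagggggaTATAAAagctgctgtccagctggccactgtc
Krtap8-1: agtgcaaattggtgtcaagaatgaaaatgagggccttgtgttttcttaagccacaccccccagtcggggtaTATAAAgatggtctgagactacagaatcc
The letters begin 29 to 32 bases before the start in Krt34, Krtap3-2, Krtap17-1 and Krtap8-1, 40 before it in Krt71 and 15 before it in Krt27. Krt75 and Krt82 hold no exact match in this window.

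The central comparison was p63beta against p63alpha epidermis. With all 8 libraries, 53 of the 75 genes had enough counts to be tested, and 0 of them were called by edgeR's quasi-likelihood test at an adjusted p under 0.05, against 0.232% of the 13796 genes tested (32 genes), of which 2 genes (0.0145%) were lower in p63beta. None of the 53 reached an unadjusted p under 0.05, against 4.64% of all genes, and the lowest was 0.0777 (Krtap4-9). DESeq2 and limma also called 0 of them, and DESeq2 gave no adjusted p for 41 of the 53. The fitted log2 fold change, p63beta over p63alpha, was negative for 50 genes and positive for Krt84, Krtap13 and Krtap17-1, while 50.7% of all genes tested were negative. Its median was -2.28 over the 53 genes and -0.00 over all genes tested. The median standard error (SE) was 1.59 for these genes and 0.26 for all genes, and in 0 of the 53 did the groups lie apart without overlap, against 1.47% of all genes with p63beta higher and 1.46% with p63beta lower.

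Without EP09, which leaves 3 p63alpha libraries, the direction turned. The log2 fold change was then positive for 52 of 53 genes and negative for Krt32, against 49.7% positive among all 13949 genes tested. Its median was 2.23 for the hair genes and -0.00 for all genes. The sign differed between the fits with and without EP09 for 49 of the 53 genes. Again edgeR called 0 of the 53 (0.158% of all genes), with a lowest adjusted p of 0.192, for Krtap8-1. DESeq2, run on the same 7 libraries after the data were seen, called 12 of the 53, each higher in p63beta, against 1.11% of all genes called in that direction. These were Krt26, Krt27, Krt31, Krt33a, Krt71, Krt81, Krt86, Krtap1-5, Krtap3-1, Krtap6-5, Krtap7-1 and Krtap8-1, with adjusted p from 0.000315 (Krtap8-1) to 0.0474 (Krtap1-5). An unadjusted p under 0.05 was reached by 31 of the 53, against 4.91% of all genes. Every p63beta library was above each of the 3 other p63alpha libraries in 14 of the 53, against 2.96% of all genes, and below them in 0, against 1.93%. Of these 53 genes 14 lay under the level of the count filter in all 3 p63alpha libraries and were tested only because p63beta libraries passed it, so these shares are partly set by the filter and support nothing. EP09 was singled out by the levels of these same genes, so the values without it are no independent evidence of a direction. With EP09 kept, the direction also depended on the scale: limma gave a positive value for 13 of the 53 on log2(TPM + 1) (median -0.21) and for 37 on log2(TPM + 0.1) (median 0.31). With any other single library left out, the median stayed between -2.87 and -1.96.

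**Figure D2:**
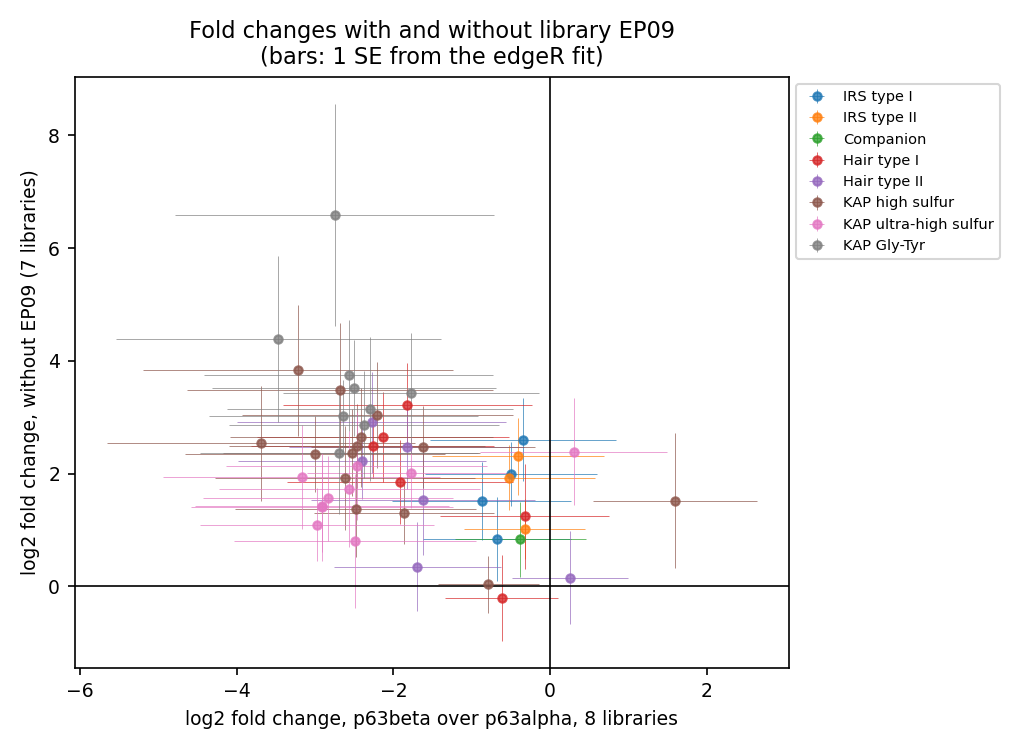
Fitted log2 fold change of p63beta over p63alpha for the 53 genes tested, with all 8 libraries (x axis) and without EP09 (y axis), bars being the SE and colours the classes. Nearly all points lie at the upper left, at negative values with EP09 and positive values without it.

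The split by the style of the library names gave the same picture. Among the 6 EP libraries, 55 of 56 genes tested had a negative log2 fold change, with a median of -2.37, and without EP09 51 of 56 were positive, with a median of 2.19 and a lowest adjusted p of 0.538. The other style has 1 library per genotype, and its summed level was 52.0 CPM in WT3 and 192 CPM in KO2. With the naming style as a term in the edgeR fit, the median was -1.73 with EP09 and 1.97 without it (lowest adjusted p 0.2505). The labels do not say what the naming styles stand for.

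The keratins of the inner root sheath had the highest levels per length among the keratins, with means over the 8 libraries of 37.5 TPM for Krt71, 32.9 TPM for Krt27 and 29.6 TPM for Krt25. Without EP09 the means were 19.1, 16.99 and 13.5 TPM. The type I members Krt25 to Krt28 summed to 28.6, 4.87, 10.8 and 290 CPM in EP07, EP08, WT3 and EP09 and to 22.7, 46.6, 60.4 and 56.3 CPM in EP10, EP11, EP12 and KO2. The type II members Krt71 to Krt74 summed to 23.5, 6.97, 11.5 and 248 CPM and to 22.2, 40.5, 59.6 and 60.1 CPM in the same order. EP09 stood at 10.1 and 10.54 times the median of the other 7 libraries for these classes. The means were 72.5 ± 117 CPM in p63alpha (SD, n = 4) and 45.6 ± 18.1 CPM in p63beta (SD, n = 4) for the type II sum, and the p63alpha mean was 14.01 ± 8.54 CPM without EP09 (SD, n = 3). EP07 lay within the range of the p63beta libraries in both sums, and EP08 and WT3 lay below it.

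Krt71, a type II keratin found in all layers of the inner root sheath, measured 17.4, 3.59, 7.77 and 206 CPM in p63alpha and 15.3, 32.7, 52.7 and 43.3 CPM in p63beta, in the library order used above. Its groups overlap because of EP09 and EP07. For Krt71 the log2 fold change was -0.52 ± 1.09 (SE, adjusted p 0.9999 by edgeR), and 1.93 ± 0.58 without EP09 (adjusted p 0.513). Krt27, a type I keratin of the sheath, showed 10.1, 2.64, 3.90 and 122 CPM in p63alpha and 10.1, 21.2, 39.3 and 16.9 CPM in p63beta. The fold change of Krt27 was -0.50 ± 1.10, and 1.99 ± 0.57 without EP09 (adjusted p 0.459). Krt25 stood at 13.2, 1.46, 4.58 and 131 CPM and at 8.40, 20.9, 13.6 and 28.7 CPM. Its log2 change was -0.87 ± 1.14 with EP09 and 1.51 ± 0.69 without it (SE, edgeR). For Krt25, KO2 rather than EP12 was the highest p63beta library.

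Some sheath keratins had another order of libraries within p63beta. Krt28, a type I keratin of the sheath, and Krt73, a type II keratin of its cuticle, were highest there in KO2, at 9.03 and 14.6 CPM, and measured only 2.23 and 3.44 CPM in EP12. In EP09 they reached 22.9 and 31.8 CPM, 9.42 and 5.58 times the median of the other 7. Krt72, also a cuticle keratin, stood at 0.205, 0.508 and 0.372 CPM in EP07, EP08 and WT3, at 9.58 CPM in EP09, and at 0.670 to 3.31 CPM in p63beta. The 3 lowest p63alpha libraries and the 4 p63beta libraries of Krt72 did not overlap (log2 fold change 2.31 ± 0.69 without EP09, adjusted p 0.509).

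Krt75 (chromosome 15, about 101563340 to 101573900, rounded) is the type II keratin of the companion layer, which lies between the inner and the outer root sheath. It measured 6.74, 6.60, 1.24 and 33.5 CPM in p63alpha and 7.45, 9.16, 2.23 and 13.8 CPM in p63beta. EP09 was 4.98 times the median of the other libraries, the smallest such ratio of the 8 classes. EP12, which was the second highest library for most hair genes, held less Krt75 than any library but WT3. Its log2 fold change with SE was -0.38 ± 0.83 (adjusted p 0.9999 by edgeR), and 0.83 ± 0.67 without EP09.

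**Figure D3:**
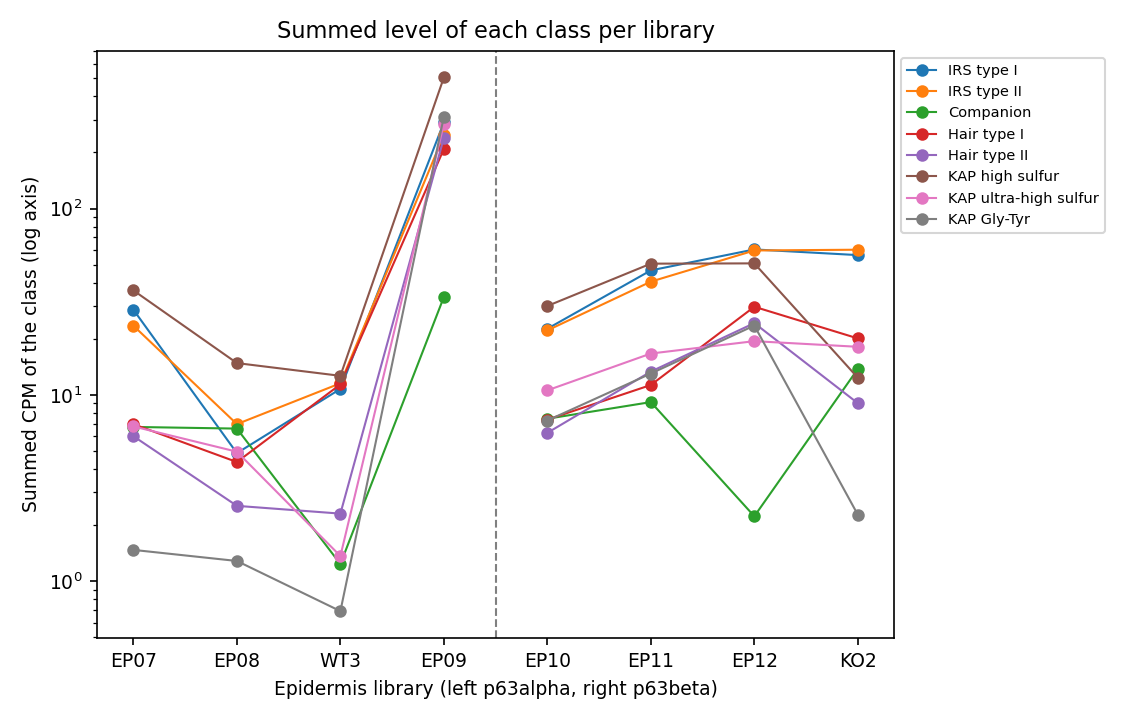
Summed CPM of each of the 8 classes on a log axis in each epidermis library, p63alpha left and p63beta right of the dashed line (IRS is the inner root sheath). Lines only join the points of a class within a genotype, since libraries have no order, and every class peaks at EP09, with the high glycine-tyrosine KAPs spanning the widest range.

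The hair shaft keratins showed a wider gap between EP09 and the rest than the sheath keratins. The 7 type I hair keratins summed to 6.97, 4.37, 11.4 and 209 CPM in p63alpha and to 7.37, 11.3, 29.7 and 20.1 CPM in p63beta. The 6 type II hair keratins summed to 6.01, 2.54, 2.31 and 240 CPM and to 6.26, 13.3, 24.3 and 9.03 CPM. EP09 was 18.5 and 38.3 times the median of the other libraries for these sums. Among the 6 type I genes tested the median log2 fold change was -1.87 and, without EP09, 2.17, and among the 6 type II genes tested it was -1.76 and 1.88.

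The keratins of the cortex, the body of the shaft, were the most unequal. Krt86 measured 0.947, 1.33, 0.242 and 88.3 CPM in p63alpha and 2.56, 3.69, 7.77 and 1.37 CPM in p63beta. Krt81 measured 0.937, 0.420, 0.261 and 85.6 CPM and 0.844, 3.87, 10.01 and 1.34 CPM. EP09 was 64.3 times the median of the other libraries for Krt86 and 91.3 times for Krt81. Krt83, another cortex keratin, stood at 0.112 to 0.723 CPM in the 3 other p63alpha libraries, 33.0 CPM in EP09 and 0.913 to 3.89 CPM in p63beta, so that only EP09 lay above the p63beta libraries. Without EP09 the log2 fold changes were 2.23 ± 0.69 for Krt86, 2.91 ± 0.90 for Krt81 and 2.47 ± 0.74 for Krt83 (SE, adjusted p 0.538, 0.539 and 0.513).

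The type I cortex keratins were also highest in EP09, and EP12 was the highest p63beta library. Krt34 showed 0.892, 0.790, 1.36 and 59.0 CPM in p63alpha and 1.46, 3.26, 9.12 and 1.002 CPM in p63beta, a log2 change of -1.91 ± 1.44 with EP09 and 1.85 ± 0.74 without it (SE, edgeR). Krt33a showed 0.412, 0.357, 0.687 and 59.2 CPM and 1.60, 1.69, 5.33 and 2.48 CPM, and its 3 other p63alpha libraries all lay below p63beta. For Krt33a the log2 fold change was -2.26 ± 1.55 with EP09 and 2.50 ± 0.58 without it (edgeR adjusted p 0.249). Krt33b ranged from 0.227 to 0.364 CPM in the 3 other p63alpha libraries, reached 36.5 CPM in EP09 and ranged from 0.596 to 4.57 CPM in p63beta. Estimates for Krt33a, Krt33b, Krt34, Krt81, Krt83 and Krt86 were fractional in some library, which shows that reads were shared with other transcripts; with which ones was not tested, and values of single genes are uncertain. Such fractional estimates occurred for 40 of the 75 genes, 27 of them KAP genes.

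Other hair keratins had another order of libraries. Krt82, a cuticle keratin, measured 1.03, 0.169, 0.155 and 6.999 CPM in p63alpha and 0.461, 0.964, 0.172 and 0.646 CPM in p63beta, so that EP07 was above all p63beta libraries. Krt32, another cuticle keratin, had 2.28, 1.96, 7.28 and 10.5 CPM and 1.72, 0.675, 6.92 and 4.12 CPM, and was the single gene with a negative log2 fold change both with EP09 (-0.62 ± 0.72) and without it (-0.20 ± 0.77). Krt84, which is best known from the tongue, was not high in EP09. It measured 1.29, 0.508, 0.464 and 0.611 CPM in p63alpha and 0.586, 1.51, 0.0430 and 1.09 CPM in p63beta. Krt32 and Krt84 are not among the genes named by rule and were picked with their values known.

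The KAP genes with a high sulfur content, which bind cortex and cuticle filaments through cysteines, have 19 genes here. They summed to 36.4, 14.8, 12.7 and 505 CPM in p63alpha and 30.0, 50.6, 50.8 and 12.4 CPM in p63beta. KO2, at 12.4 CPM, was lower than every p63alpha library, unlike in the keratin classes. This order rests largely on Krtap3-2. That gene alone measured 30.3, 11.2 and 11.6 CPM in EP07, EP08 and WT3 and 6.20 CPM in KO2, so the order is not a trait of the class. In the 14 genes tested, the median log2 fold change was -2.47 with EP09 and 2.42 without it. Of these 14 genes 6 lay under the level of the count filter in EP07, EP08 and WT3. Without EP09 they were tested only because p63beta libraries passed it, so that median is partly set by the filter. The family numbers that place a KAP in its kind are general knowledge and were not measured here. Krtap10-4, Krtap10-10 and Krtap12-1 were counted as ultra-high sulfur and Krtap16-3 as high sulfur, and the kind of these genes is uncertain. Counts, sums and medians by kind rest on this placement.

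Krtap3-2 had the highest mean level per length of all 75 genes, at 48.1 TPM with EP09 and 33.2 TPM without it. It measured 30.3, 11.2, 11.6 and 81.5 CPM in EP07, EP08, WT3 and EP09 and 20.04, 31.3, 15.8 and 6.20 CPM in p63beta, and its groups overlapped with or without EP09. Between genotypes it differed by -0.79 ± 0.64 on the log2 scale (SE, adjusted p 0.9999 by edgeR) and 0.03 ± 0.51 without EP09. In EP09 it was 5.18 times the median of the other libraries. The nearby Krtap3-1 (chromosome 11, 99566027 to 99566630) measured 0.527, 0.575, 0.0619 and 64.1 CPM in p63alpha and 1.55, 3.57, 7.09 and 0.534 CPM in p63beta. For Krtap3-1 EP09 was 111 times the median of the rest, so 2 nearby genes of a family had unlike ratios. Krtap3-3, on the other side of Krtap3-2, stood at 1.99, 0.857, 0.0879 and 59.7 CPM and at 1.82, 2.45, 5.04 and 0.814 CPM.

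A pair of high sulfur genes of chromosome 16 were near 0 outside EP09. Krtap15 measured 0.234, 0, 0.0310 and 31.8 CPM in p63alpha and 0.419, 0.418, 1.20 and 0.200 CPM in p63beta. Krtap13-1 measured 0.117, 0.102, 0.0310 and 15.7 CPM and 0.209, 0.418, 0.644 and 0.445 CPM, with every p63beta library above the 3 lower p63alpha libraries. The log2 fold change of Krtap13-1 was -2.999 ± 1.66 with EP09 and 2.35 ± 0.67 without it (edgeR adjusted p 0.459). Both genes lay under the level of the count filter (0.321 CPM) in the 3 lower p63alpha libraries. Without EP09 they were tested only because p63beta libraries passed it. A count of 0 in the epidermis libraries allows a level of 0.0668 to 0.141 CPM, taken as 3 counts, and this limit covers counting error only.

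The ultra-high sulfur KAPs, the most cysteine-rich kind, summed to 6.78, 4.96, 1.37 and 284 CPM in p63alpha and 10.6, 16.7, 19.4 and 18.1 CPM in p63beta. The p63beta libraries were all above the 3 lower p63alpha libraries in this sum. For KO2 this rests largely on Krtap17-1, which alone measured 15.5 CPM there, so the order is not a trait of the class. Only 1 of the 10 genes tested had every p63beta library above the 3 lower p63alpha libraries. In the 10 genes tested the median log2 fold change was -2.70 with EP09 and 1.65 without it. Krtap4-1 measured 0.887, 0.440, 0.0619 and 40.1 CPM in p63alpha and 1.25, 1.57, 1.89 and 0.259 CPM in p63beta. Krtap4-16 had 0.674, 0.677, 0 and 38.2 CPM and 1.005, 1.48, 1.98 and 0.289 CPM. In both, WT3 and KO2 were the lowest libraries of their genotypes and EP09 the highest of all. Krtap4-9, which had the lowest p of the 53 genes with all libraries, measured 0.294, 0.440, 0.124 and 20.6 CPM and 0.628, 0.698, 0.946 and 0.178 CPM. It had a log2 fold change of -2.98 ± 1.49 (SE, unadjusted p 0.0777, adjusted p 0.9999) and 1.09 ± 0.65 without EP09. Krtap9-3 ranged from 0.0293 to 0.609 CPM in the 3 lower p63alpha libraries, reached 30.9 CPM in EP09 and ranged from 0.236 to 2.60 CPM in p63beta.

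Krtap17-1 of chromosome 11, the ultra-high sulfur gene of highest mean TPM (15.2 TPM, and 9.88 TPM without EP09), had another pattern. It measured 2.61, 0.677, 0.341 and 19.2 CPM in p63alpha and 1.76, 2.83, 3.48 and 15.5 CPM in p63beta. EP09 and KO2 were both high for this gene, and no other library exceeded 3.48 CPM. With all libraries the log2 fold change was 0.30 ± 1.19 (SE, adjusted p 0.9999 by edgeR) and 2.39 ± 0.95 without EP09 (adjusted p 0.890).

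The high glycine-tyrosine KAPs, which fill the space between cortex filaments, were the most unequal class. They summed to 1.47, 1.29, 0.692 and 311 CPM in p63alpha and to 7.29, 13.0, 23.6 and 2.28 CPM in p63beta, so EP09 was 137 times the median of the other libraries. The class took 14.7% of the summed CPM of all 75 genes in EP09 and 1.19% to 8.73% in the other libraries. The type II sheath keratins took 11.7% in EP09 and 15.0% to 31.3% in the other 7, and the type I sheath keratins took 13.7% in EP09, within their range of 10.5% to 29.3% in the others. Among the 9 genes tested the median log2 fold change was -2.57 and, without EP09, 3.43. Of these 9 genes 7 lay under the level of the count filter in the 3 other p63alpha libraries. Without EP09 they were tested only because p63beta libraries passed it, so the sign of that median is largely set by the filter. Krtap19-3 had no count in the 3 other p63alpha libraries, and its p63beta mean was at least 12.8-fold higher than the 3 counts over that group that a count of 0 allows. The class median was the same with that gene at its bound.

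Krtap7-1 and Krtap8-1 lie near each other on chromosome 16 (89507703 to 89508323 and 89487374 to 89487952) and had the same mean of 45.6 TPM, which rests on 312 and 316 TPM in EP09 and was 7.49 and 7.01 TPM without it. Krtap7-1 measured 0.381, 0.338, 0.186 and 87.5 CPM in p63alpha and 1.34, 3.66, 8.29 and 0.757 CPM in p63beta. Krtap8-1 measured 0.439, 0.237, 0.372 and 80.2 CPM and 1.97, 2.99, 5.71 and 1.02 CPM. In both, each p63beta library was above the 3 lower p63alpha libraries and far below EP09. With EP09 the log2 fold changes were -2.50 ± 1.81 for Krtap7-1 and -2.64 ± 1.72 for Krtap8-1 (SE, edgeR adjusted p 0.9999 for both). Without EP09 they were 3.52 ± 0.85 and 3.03 ± 0.64 (adjusted p 0.289 and 0.192). Krtap22-2 followed, at 0.205, 0.135, 0.0619 and 23.2 CPM and 0.335, 0.964, 2.58 and 0.200 CPM. Krtap19-9b was near 0 in p63alpha outside EP09, with 0, 0.0338, 0 and 15.1 CPM, and measured 0.419, 0.450, 0.387 and 0 CPM in p63beta.

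In the keratin classes and the KAP kinds alike, 22 genes did not pass the count filter: 10 ultra-high sulfur, 5 high sulfur and 5 high glycine-tyrosine KAP genes, Krt36 and Krt74. Krt36 measured at most 0.845 CPM and Krt74 at most 0.503 CPM. Of these 22, 3 had no count in any library, and others had counts almost wholly in EP09. Krtap16-3 measured 15.7 CPM in EP09 and at most 0.730 CPM elsewhere, and Krtap19-5 measured 14.9 CPM in EP09 and at most 0.344 CPM elsewhere.

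Other genes of the follicle were set beside the keratins. Of 12 proteins of the shaft and inner root sheath that are not keratins, 9 were highest in EP09. The sum of all 12 was there 2.32 times the median of the other libraries. Much of that sum came from Tchh and Tgm3, which were not highest in EP09, so the ratio does not describe the 9. Tgm3 measured 151 CPM in EP09 and 88.3 to 325 CPM elsewhere. With all libraries neither edgeR nor DESeq2 called any of the 12, and 0 had an unadjusted p under 0.05 by edgeR (4.64% of all genes). A negative log2 fold change was found for 10 of 12 (median -0.29), and without EP09 11 of 12 were positive (median 1.34). Gprc5d, a receptor of hardening shaft cells, had 0.176, 0, 0.155 and 31.2 CPM in p63alpha and 0.586, 0.803, 2.96 and 0.646 CPM in p63beta. Prr9, a proline-rich protein of the shaft, had 2.17, 1.69, 1.58 and 54.5 CPM and 6.66, 9.38, 16.1 and 11.4 CPM, with a log2 change of -0.28 ± 1.10 with all libraries (SE, edgeR adjusted p 0.9999). Without EP09 that value was 2.61 ± 0.38 (edgeR adjusted p 0.0398), for a gene picked with its values known and after EP09 was set aside for its hair gene levels. Under the same limit, DESeq2 without EP09 called Gprc5d, Prr9 and S100a3 of the 12 (adjusted p 0.0246, 1.11e-09 and 0.000194). Each was higher in p63beta, against 1.11% of all genes called in that direction. Tchh, which encodes trichohyalin of the inner root sheath, was highest in EP12 instead, at 678 CPM, against 401 CPM in EP09 and 19.7 to 185 CPM in the other libraries.

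Regulators of the hair matrix lay closer to the other libraries in EP09. Of 12 genes, 5 were highest in EP09, and their sum there was 1.02 times the median of the other libraries. EdgeR and DESeq2 called none. An unadjusted p under 0.05 was reached by 2 with edgeR and 4 with DESeq2, against 4.64% and 5.77% of all genes. With all libraries 11 of 12 had a negative log2 fold change, and the median was -0.44 both with and without EP09. Hoxc13, a transcription factor that switches on hair keratin genes, measured 9.14, 8.70, 3.37 and 15.5 CPM in p63alpha and 8.33, 4.95, 2.02 and 3.21 CPM in p63beta (log2 fold change -0.91 ± 0.47, SE, edgeR adjusted p 0.9999, and -0.60 ± 0.48 without EP09). Lef1, which carries Wnt signals in the matrix, measured 35.4, 55.5, 23.5 and 27.7 CPM and 31.8, 19.6, 9.02 and 15.9 CPM. EP12, which had the highest p63beta level of most hair genes, had the lowest level of both regulators, which were picked with their values known. Dlx3, Foxq1, Gata3 and Ovol1 of the list were not lowest in EP12, and the other genes of the list were. Any link to the hair gene levels was not tested.

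Markers of other cell types also differed in EP09, and their part in the hair gene levels was not tested. All 5 tested of 6 sebocyte genes were highest in EP09, with a sum of 389 CPM against 101 to 148 CPM in the other p63alpha and 120 to 281 CPM in the p63beta libraries. Of 8 dermal papilla genes, 5 were tested and 4 of these were highest in EP09. Their sum was 20.3 CPM there, 3.22 to 7.64 CPM in the other p63alpha and 6.75 to 9.40 CPM in the p63beta libraries, and Fgf7 was at 0 in EP08 and WT3 and Corin and Crabp1 in EP08. Of 8 outer root sheath and stem cell genes 4 were highest in EP09. All 8 summed to 3546 CPM there, against 1987 to 2431 CPM in the other p63alpha and 1442 to 1882 CPM in the p63beta libraries. Krt15 alone made up 2588 CPM of the EP09 sum, against 937 to 1827 CPM in the other p63alpha and 432 to 1322 CPM in the p63beta libraries. The sum therefore does not describe the other genes of this list. Of 7 fibroblast genes, 6 were tested and 4 highest in EP09, with sums of 197 CPM there, 101 to 182 CPM and 75.0 to 150 CPM. None of the 8 melanocyte genes was highest in EP09, nor was either of the 2 tested of 6 muscle genes (Myh8 was at 0 in every p63alpha library). Interfollicular epidermis genes summed to 102388 CPM in EP09 and to 111709 to 153552 CPM elsewhere. With all libraries edgeR called none of the 63 tested genes of all these lists, and 9 had an unadjusted p under 0.05, against 4.64% of all genes. DESeq2 called 3 of the 63, against 1.02% of all genes, and gave no adjusted p for 4 of them. The 3 were all higher in p63beta: the melanocyte genes Dct (log2 change 1.02, adjusted p 0.0110) and Tyrp1 (1.66, adjusted p 0.0478) and the muscle gene Acta1 (3.55, adjusted p 0.00750). Without EP09, which was set aside for its hair gene levels, edgeR called 1 of 64 tested genes of these lists and DESeq2 called 7. The shares of all genes called were 0.158% and 1.25%.

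**Figure D4:**
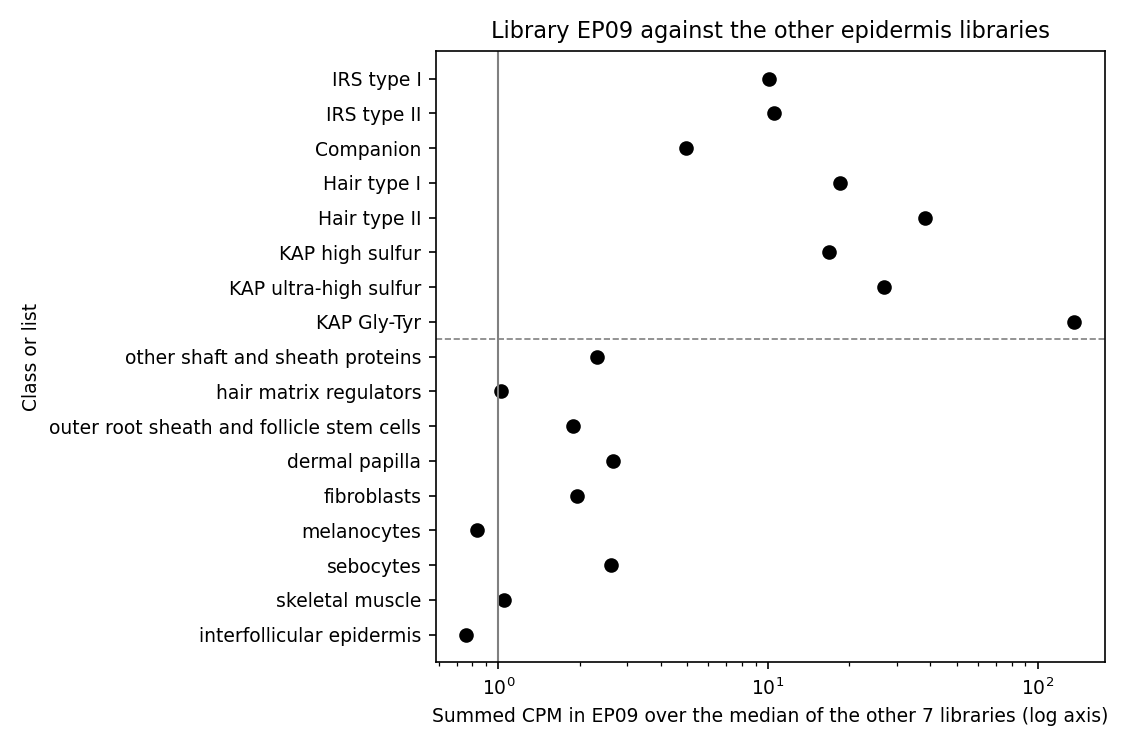
Summed level in EP09 divided by the median of the other 7 epidermis libraries, on a log axis, for the 8 hair gene classes and the 9 lists of other genes, with the grey line at 1. The hair gene classes lie between 4.98 and 137, and the other lists between 0.761 and 2.65. A sum can be carried by a few genes of high level, as by Tchh and Tgm3 among the other shaft and sheath proteins.

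The second comparison asked whether the same genes differ between p63beta and p63alpha cultured keratinocytes. Of the 75 genes, 74 were in the keratinocyte table, 34 had at least 1 read pair and 11 had at least 10 over the 6 libraries. The other 40 had none, which allows a mean level of up to 0.0191 CPM. Only Krt75 and Krtap3-2 had enough counts for a test. Neither was called by edgeR or, where it gave an adjusted p, by DESeq2, against 0.101% of 13820 genes (14 genes), and neither reached an unadjusted p under 0.05, against 6.85% of all genes. Whether the effects differ between epidermis and cultured cells was not tested.

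Krt75 was high in the libraries numbered 1 of both genotypes. It had 2916, 65 and 43 read pairs in p63alpha libraries 1, 2 and 3 and 1946, 105 and 110 in p63beta, or 119, 2.16 and 2.08 CPM against 70.5, 4.12 and 3.76 CPM. Its log2 fold change was -0.71 ± 1.82 (SE, adjusted p 0.980 by edgeR), and a fit blocked by replicate number gave 0.13 (adjusted p 0.927). Krtap3-2 had 21, 27 and 9 read pairs in p63alpha and 75, 28 and 22 in p63beta, or 0.860, 0.898 and 0.435 CPM against 2.72, 1.10 and 0.753 CPM. Its log2 fold change was 1.03 ± 0.57 (adjusted p 0.819).

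The p63beta library 1 also stood apart in the type II hair keratins. Krt83 had 460 read pairs there and 0 to 10 in the other 5 libraries, Krt81 had 220 and 0 to 1, Krt86 had 66 and 0 to 4, and Krt82 had 50 and none. Krt84 had 31 in that library and 15 in p63alpha library 1, with at most 5 elsewhere. Without Krt75, the summed level was 3.44, 1.76 and 1.11 CPM in p63alpha and 35.6, 2.95 and 1.95 CPM in p63beta. Of the 53 KAP genes 16 had a read pair, and Krtap3-2 was the single one with 10 or more. Among the other follicle genes, S100a3, a calcium-binding protein of the hair cuticle, rose from 5.81, 5.42 and 4.79 CPM to 18.04, 23.8 and 22.6 CPM (log2 fold change 2.01 ± 0.17, SE, edgeR adjusted p 0.0297), a call that did not survive the removal of any 1 library.

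**Figure D5:**
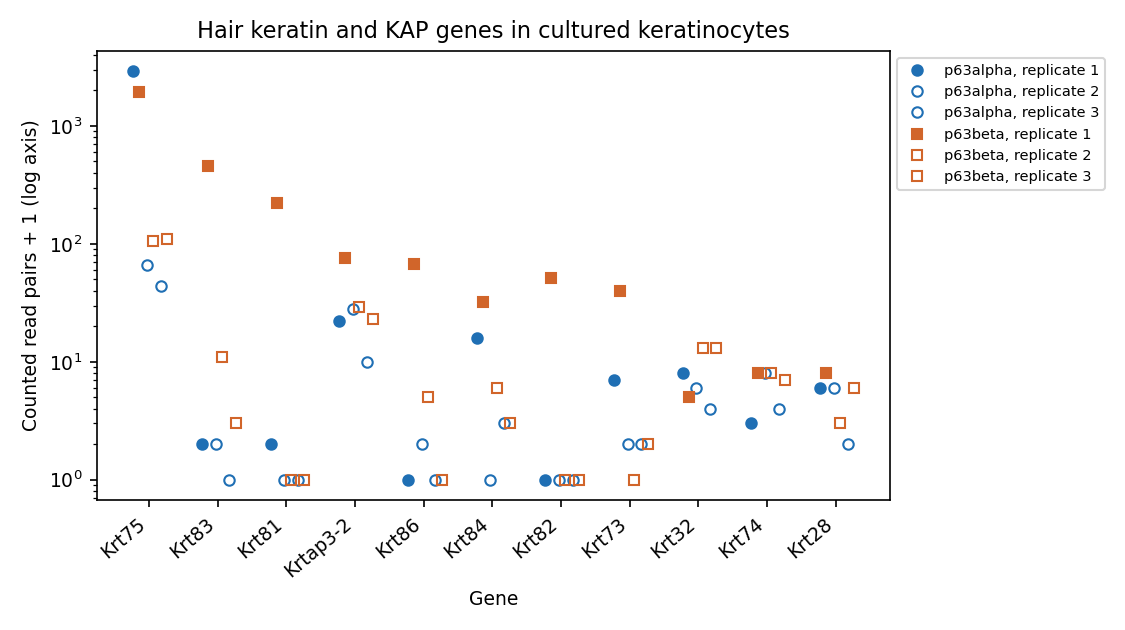
Counted read pairs plus 1 (log axis) of the genes with at least 10 read pairs in the keratinocyte libraries, by genotype (colour) and replicate number (filled for library 1). Krt75 is high in both libraries numbered 1, and Krt81, Krt82, Krt83 and Krt86 are high in p63beta library 1 only.

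In the authors' deposited table for epidermis, 70 of the 75 genes had a fold change, with a median log2 value of -2.28, and 66 were negative. That deposited table gave an adjusted p for 19 of them, 0 of which were under 0.05, against 0.896% of the 16071 genes with one. The lowest of the 19 in the authors' deposited table was 0.998. For keratinocytes, the authors' deposited table gave 34 of the genes a fold change and 2 an adjusted p, neither under 0.05.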

How the data were processed

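RNA of epidermis (8 libraries) and of cultured keratinocytes (6 libraries) was sequenced from TruSeq stranded mRNA libraries, per the labels' protocols. For epidermis the authors deposited expected counts and TPM per gene estimated by salmon, per the submitters' processing notes, and expected counts were rounded here before testing. Keratinocyte files hold counts of read pairs that the authors made with featureCounts 1.5.2 (strand setting 2, minimum overlap 25 bases), per the file headers, and FPKM values the authors deposited beside them. The authors' deposited DESeq2 tables hold log2 fold changes and adjusted p-values, and their 14 per-library normalised columns were not used. The build was mm10. For salmon and the authors' DESeq2, versions are not given in the sources used here. Epidermis columns named WT and KO were taken as p63alpha and p63beta, since a header of the keratinocyte files links those words to the genotypes.

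Each kind of sample was fitted alone over all its genes with edgeR 4.0.16 in R 4.3.3 (TMM, filterByExpr by group, robust quasi-likelihood F test, Benjamini-Hochberg adjustment, threshold 0.05). CPM levels are unscaled shares of the library total. Log2 fold changes are p63beta over p63alpha. Scripts were tested on simulated data. The 75 genes and the lists of other genes were chosen with earlier results of these data known. In each of 8 classes the 3 genes of highest mean TPM and the 2 of lowest p were named, with every gene tested in keratinocytes, and for the other lists every called gene, the 2 of highest mean CPM and the 1 of lowest p, of which the text describes a part; Gprc5d, Prr9, Hoxc13, Lef1, Krtap19-3, Krtap13, Krtap16-3, Krtap19-5, Krt36, Krt74 and the genes DESeq2 alone called were added after their values were seen. Alternatives were RLE size factors, no filter, DESeq2 1.42.0, no robust estimation, limma 3.58.1 on log2 TPM or FPKM with a pseudocount of 1 or 0.1, each library left out, and the style of library names as a term or a restriction. Without EP09, the fits by DESeq2, by limma and with the naming style as a term or a restriction were added after seeing the data. Sums over classes were not tested. In keratinocytes, deviations from the group mean correlated by 0.59, 0.51 and 0.20 for the same replicate number over 13820 genes. For unlike numbers the correlations ran from -0.53 to 0.19, so number 3 stood no clearer than some unlike numbers. Whether the numbers mark pairs is thus not settled, and a block fit was run as an alternative. Library totals in keratinocytes were 20688027 to 30066041 read pairs. Raw reads were not used here.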

Additional observations from a re-analysis of the deposited data

Results flagged for a closer look

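In groups of 4 libraries, the gap between the most extreme library and its nearest neighbour, divided by the range of the group, was compared with Dixon's critical value for 4 samples. The 28 named genes and 8 class sums gave 72 groups in epidermis, and 37 exceeded that value. The value is set for about 1 group in 20 among independent groups of normal values, which these are not. The genes are not independent of each other, and the class sums contain them. Most named genes were also picked by mean TPM or p over these same libraries, and EP09 carries much of the mean TPM. The number of groups is therefore a description and cannot be read against that rate. In p63alpha all 34 such groups had EP09 as the extreme library.

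Among the class sums in p63alpha, the ratio was 0.830 for the companion layer keratin (and for Krt75, its single gene), 0.917 and 0.931 for the type I and type II inner root sheath keratins, and 0.966 and 0.984 for the type I and type II hair keratins. For the KAP genes it was 0.952 (high sulfur), 0.981 (ultra-high sulfur) and 0.997 (high glycine-tyrosine).

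Among the keratins in p63alpha it was 0.938 for Krt27, 0.909 for Krt25, 0.932 for Krt71, 0.968 for Krt72 and 0.897 for Krt73 in the inner root sheath. In the shaft it was 0.990 for Krt34, 0.994 for Krt33a, 0.996 for Krt33b, 0.992 for Krt81, 0.988 for Krt86, 0.981 for Krt83 and 0.873 for Krt82. Among the KAP genes in p63alpha it was 0.998 for Krtap7-1, 0.997 for Krtap8-1, 0.994 for Krtap22-2 and 0.998 for Krtap19-9b in the high glycine-tyrosine kind, and 0.992 for Krtap3-1, 0.968 for Krtap3-3, 0.993 for Krtap15 and 0.994 for Krtap13-1 in the high sulfur kind. In the ultra-high sulfur kind it was 0.880 for Krtap17-1, 0.981 for Krtap9-3, 0.982 for Krtap4-16, 0.979 for Krtap4-1 and 0.985 for Krtap4-9. Krt28 and Krtap3-2 were below the critical value in p63alpha.

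In p63beta 3 groups exceeded it. KO2 was high for Krt28 (0.955) and Krtap17-1 (0.875), and KO2 was low for Krtap19-9b (0.860), where it had no count.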

How the results depend on the processing

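No paired analysis was possible in epidermis because the columns carry no replicate numbers. With the replicate number as a block in keratinocytes, 37 genes were called in place of 14, none a hair gene, and Krt75 turned from -0.71 to 0.13. DESeq2 called 141 genes in epidermis and 223 in keratinocytes, and the EP libraries alone gave 8, again with 0 hair genes. The median log2 fold change of the hair genes tested in epidermis was -0.21 and 0.31 by limma on log2(TPM + 1) and log2(TPM + 0.1), which moved the median of all genes to -0.09 and -0.10; 13 and 37 of 53 genes were then positive. With each library left out in turn, edgeR called 5 to 28 genes in epidermis and 1 to 4 in keratinocytes, with 0 hair genes, and the median was positive without EP09 alone. Without EP09, DESeq2 called 175 genes, 12 of them hair genes, and limma called 0 hair genes on either scale (lowest adjusted p 0.244 and 0.149). Over all fits with a library left out, the median ranged from -2.87 to 2.24. A count of 0 calls in a design where single members vary this much does not show that the genes are alike between genotypes.

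The following log2 fold changes had the other sign than with edgeR on all libraries. With log2(TPM + 1) they were 0.40 for Krtap7-1, 0.39 for Krtap8-1, 0.0186 for Krtap22-2, 0.34 for Krtap3-1, 0.69 for Krt27, 0.42 for Krt25, 0.71 for Krt71, 0.17 for Krt72 and 0.41 for S100a3. With log2(TPM + 0.1) they were 0.85 for Krtap7-1, 0.77 for Krtap8-1, 0.40 for Krtap22-2, 0.62 for Krtap19-9b, 0.85 for Krtap3-1, 0.10 for Krtap3-3, 0.29 for Krtap15, 0.13 for Krtap13-1, 0.27 for Krtap9-3, 0.46 for Krt33a, 0.20 for Krt33b, 0.81 for Krt27, 0.58 for Krt25, 0.38 for Krt81, 0.28 for Krt86, 0.62 for Krt83, 0.82 for Krt71, 0.00993 for Krt73, 0.66 for Krt72 and 0.48 for S100a3. With the naming style as a term they were -0.35 for Krtap17-1 and 0.00554 for Krt1, and with the EP libraries alone -1.35 for Krtap17-1, 0.26 for Tgm3, -0.37 for Enpp2, 0.0883 for Krt1 and 0.0602 for Krt10. Krt75 in keratinocytes was 0.0358 and 0.28 by limma on log2(FPKM + 1) and log2(FPKM + 0.1). The cause was not tested.

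The lowest and highest values over the fits with 1 library left out, which include the fits without EP09 by DESeq2, by limma or with the naming style as a term or a restriction, for hair genes in epidermis, were: Krt25 -1.27 to 1.79, Krt27 -0.94 to 1.99, Krt28 -1.55 to 0.84, Krt33a -2.76 to 2.89, Krt33b -3.01 to 2.78, Krt34 -2.87 to 2.50, Krt71 -0.91 to 1.9999, Krt72 -0.87 to 2.32, Krt73 -0.94 to 1.02, Krt75 -0.85 to 0.84, Krt81 -3.26 to 2.93, Krt82 -2.08 to 0.41, Krt83 -2.29 to 3.42, Krt86 -3.003 to 2.24, Krtap13-1 -3.42 to 2.41, Krtap15 -4.37 to 2.62, Krtap17-1 -0.97 to 2.40, Krtap19-9b -3.90 to 4.77, Krtap22-2 -3.39 to 2.92, Krtap3-1 -2.97 to 3.06, Krtap3-2 -1.17 to 0.11, Krtap3-3 -3.07 to 1.76, Krtap4-1 -3.34 to 1.46, Krtap4-16 -3.34 to 1.73, Krtap4-9 -3.40 to 1.11, Krtap7-1 -3.37 to 3.63, Krtap8-1 -3.19 to 3.39, Krtap9-3 -3.08 to 2.43. For other genes in epidermis they were: Col3a1 -1.35 to 0.10, Enpp2 -0.19 to 1.02, Krt1 -0.20 to 0.16, Krt10 -0.25 to 0.13, Krt17 -0.17 to 0.11, Mylpf -0.49 to 0.0301, Ovol1 -0.12 to 0.81, S100a3 -0.95 to 1.60, Scd1 -0.0271 to 1.22, Tchh -1.39 to 2.68, Tgm3 -0.53 to 0.0864, Vsig8 -1.99 to 1.40. In keratinocytes they were -3.38 to 3.57 for Krt75 and 1.93 to 2.14 for S100a3.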
